A study of Mus musculus with 11 samples.

Results

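The genes described are 8 protein-coding genes of distal mouse chromosome 4: Slc2a5, Arhgef19, Gpr153, Eno1, Fbxo44, Noc2l, Plekhn1 and Arhgef10l. They are 8 of 16228 genes in the expression table, and all 8 passed the filter on low values that left 14330 genes for testing. They lie on the same chromosome as Prkcz, one of the genes floxed in the study, and were chosen by their expression values, which differed between the knockout lines or between the control genotypes. Those contrasts are therefore given as descriptions only.

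RNA was sequenced from punches of cerebral cortex of mice at postnatal day 30, with 1 library per animal and 11 libraries in all. There were 4 libraries labelled Ng2 Cre+ Prkci f/f (Prkci cKO), 3 labelled Ng2-Cre+ Prkcz f/f (Prkcz cKO) and 4 controls, of which replicates 3 and 4 were labelled Pkcz f/f and replicates 1 and 2 Pkcz f/+. The NG2 proteoglycan gene (Cspg4), whose regulatory sequence drives this Cre recombinase, is active in oligodendrocyte precursors and in pericytes. The series asked how the atypical protein kinases C, the polarity kinases encoded by Prkci and Prkcz, act in oligodendrocyte development. The labels of the controls name no Cre, and none of the libraries is labelled as a control of the Prkci line. The labels give no Prkcz genotype for Prkci cKO and no strain for any group, so an effect of the deleted kinase and a difference between mouse lines cannot be told apart in a comparison with Prkci cKO.

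Genes that lie close together on a chromosome are inherited together, so mice bred to carry or to lack a modified allele can also differ in the DNA around it. The 8 genes have unlike roles. Slc2a5 encodes the fructose transporter GLUT5, which in brain is made mainly by microglia. Eno1 encodes the glycolytic enzyme alpha-enolase. Arhgef19 and Arhgef10l encode guanine nucleotide exchange factors. Gpr153 encodes an orphan G protein-coupled receptor. Fbxo44 encodes an F-box protein, the substrate-binding part of an SCF ubiquitin ligase. Noc2l encodes a nucleolar protein that inhibits histone acetylation, and Plekhn1 a protein with a pleckstrin homology domain.

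Sequences are shown for the genes whose values the results turn on. The upstream windows of Slc2a5 and Noc2l, the members with the largest difference in Prkci cKO in each direction, end at the base before the gene's start. They come from RefSeq on GRCm38.p6, read 5′ to 3′ on the plus strand, and capitals mark the GC box, GGGCGG on either strand. Slc2a5 is shown as chr4:150119094-150119282 and Noc2l as chr4:156235760-156236009, with 3 GC boxes each.
Slc2a5 upstream: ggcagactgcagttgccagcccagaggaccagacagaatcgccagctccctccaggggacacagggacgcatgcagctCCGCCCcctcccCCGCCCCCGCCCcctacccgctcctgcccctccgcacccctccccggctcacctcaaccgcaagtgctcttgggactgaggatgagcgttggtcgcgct
Noc2l upstream: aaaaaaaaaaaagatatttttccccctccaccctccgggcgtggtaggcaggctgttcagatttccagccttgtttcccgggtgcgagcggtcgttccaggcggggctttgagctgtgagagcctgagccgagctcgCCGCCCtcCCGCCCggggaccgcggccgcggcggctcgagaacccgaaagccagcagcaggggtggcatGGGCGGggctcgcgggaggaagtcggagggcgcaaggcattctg
A GC box was present in 30.6% of upstream windows of the length shown for Slc2a5 and in 32.7% of those of the length shown for Noc2l, over 32851 RefSeq promoters. The match describes the letters only.

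For Eno1, coding bases 667 to 816 are shown, because they hold 4 of the 8 coding positions at which Eno1 differs from its copy Gm5506. Capitals mark those positions, and the bases are those of Eno1.
Eno1 coding sequence: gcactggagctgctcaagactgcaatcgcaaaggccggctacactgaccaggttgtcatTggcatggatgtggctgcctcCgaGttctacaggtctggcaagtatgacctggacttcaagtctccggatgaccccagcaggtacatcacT
Both coding sequences are 1305 bases long and 99.4% identical. Of 1206 windows of 100 bases, the read length, 825 (68.4%) hold no difference, so a read from such a window could not be placed on one gene by its sequence.

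On GRCm38 the genes span the last part of the chromosome. Plekhn1 (chr4:156221456-156234857, minus strand) and Noc2l (chr4:156236010-156247616, plus) lie 0.86 and 0.875 Mb beyond Prkcz (chr4:155260129-155361361, minus). The other members lie on the centromere side. Gpr153 (chr4:152274232-152285337, plus) is 2.975 Mb away, Eno1 (chr4:150236721-150248879, plus) 5.011 Mb, and Slc2a5 (chr4:150119283-150144169, plus) 5.116 Mb. Fbxo44 (chr4:148152800-148160482, minus) is 7.1 Mb away, Arhgef19 (chr4:141239499-141257564, plus) 14.003 Mb, and Arhgef10l (chr4:140514485-140666012, minus) 14.594 Mb.

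The libraries were labelled as cortex. Of 10 markers of cortical excitatory neurons none was at 0 in any group, but the same held for 10 striatal markers. This check therefore could not tell cortex from striatum. The steps between low values put the depth near 21700000 to 29300000 reads, except near 15100000 in Prkcz cKO replicate 3. Prkci itself was lower in Prkci cKO (65.04, 68.25, 67.99 and 66.62) than in every control (85.28, 86.09, 89.02 and 90.69). Prkcz was 278.62, 262.39 and 292.47 in Prkcz cKO against 347.46, 323.94, 297.97 and 322.07 in controls, and was not called (log2 difference -0.22, limma adjusted p = 0.0966). All values are the authors' normalised expression signal. Differences were taken with limma over all genes tested on log2(value + 0.5), where changes of genes with low values come out too small, and a gene was called at an adjusted p under 0.05. In bulk tissue, fewer cells of a type and less RNA per cell cannot be told apart.

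**Figure D1:**
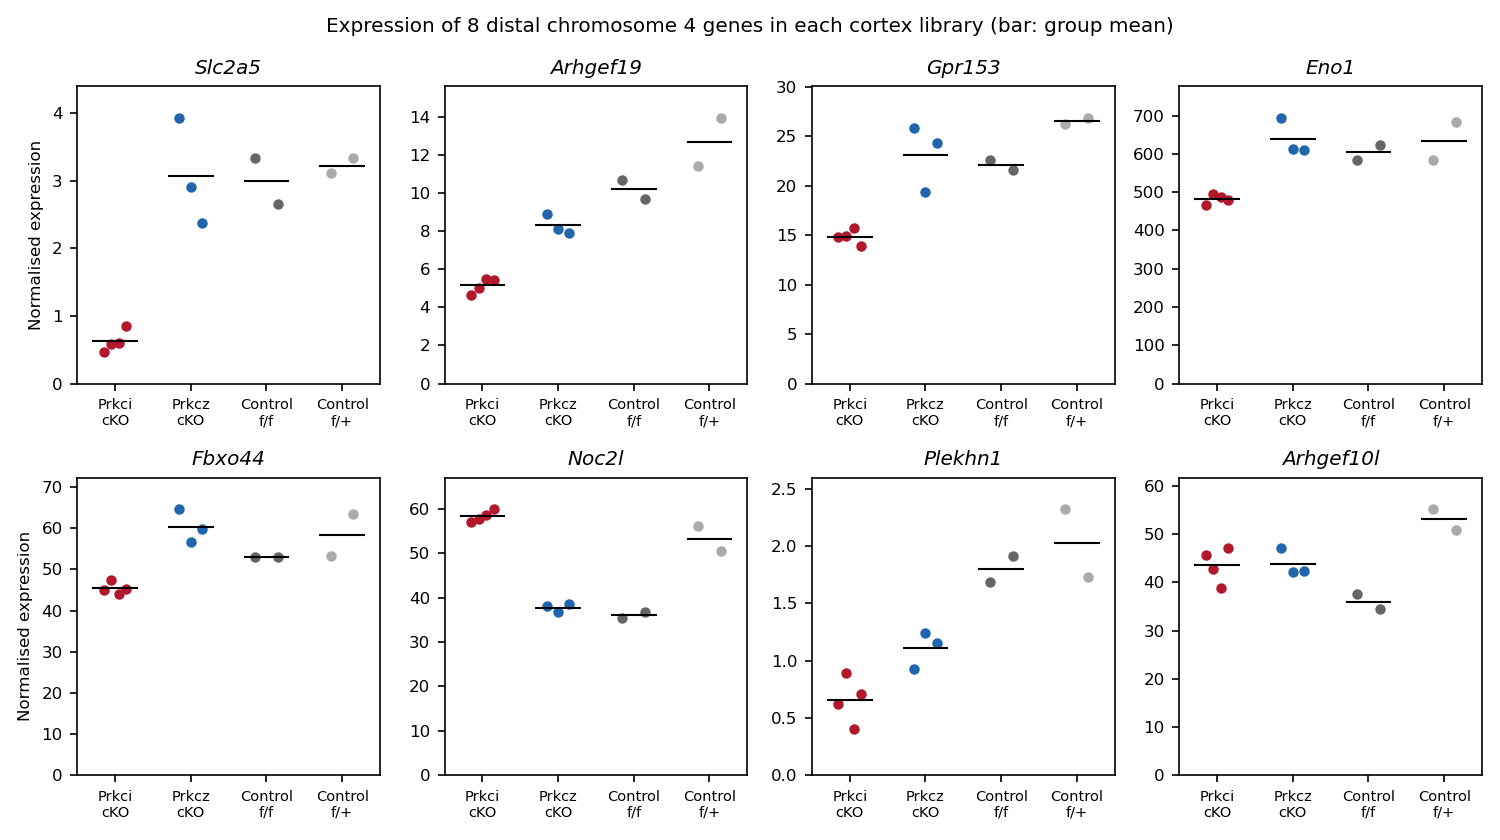
Normalised expression of the 8 genes (vertical axes, from 0) in each library, with 1 point per library and a bar at the mean of each of 4 groups (horizontal axes). In 6 of the 8 panels every Prkci cKO library lies below every control, for Noc2l every one lies above every control, and for Arhgef10l all lie between the control genotypes.

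Slc2a5, Arhgef19, Gpr153, Eno1, Fbxo44 and Plekhn1 were called lower in Prkci cKO against controls, and Noc2l and Arhgef10l were not called. With its near-identical copy Gm5506 counted in, Eno1 was not called (log2 difference 0.02, limma adjusted p = 0.920). The Fbxo44 call lay near the threshold (limma adjusted p = 0.0391). Of the 8 genes 6 were called in this comparison, against 1.61% of all genes tested (230 of 14330). All 6 were lower, as were 1.51% of all genes tested. In 6 genes the lower Prkci cKO values and the control values did not overlap, against 5.32% of all genes tested. Noc2l was above every control, as were 3.18% of all genes tested. The Prkci cKO libraries and the controls also entered the contrasts on which the genes were chosen, so these counts and the p-values below are not independent of that choice. Slc2a5 and Plekhn1 were under the filter value of 1 in every Prkci cKO library. They were therefore tested only through the groups where they were higher. In Prkcz cKO against controls none of the 8 was called by limma, where 0.649% of all genes tested were called. At an unadjusted p under 0.05 there were 2 of the 8 (Arhgef19 and Plekhn1, 25%), beside 15% of all genes tested.

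The fructose transporter gene Slc2a5 had the largest difference of the 8. It was at 0.46, 0.58, 0.60 and 0.85 in Prkci cKO, at 3.93, 2.91 and 2.37 in Prkcz cKO, at 3.34 and 2.66 in Pkcz f/f controls and at 3.11 and 3.33 in Pkcz f/+ controls. All 4 Prkci cKO libraries lay below the lowest of the other 7, and the other 3 groups overlapped. Slc2a5 averaged 0.623 ± 0.164 in Prkci cKO and 3.11 ± 0.318 in controls (SD, n = 4 each), and fell by 1.69 as a log2 difference (SE 0.158, limma adjusted p = 3.66e-04). It was called without any of the 11 libraries in turn, at log2 differences of -1.78 to -1.62. In Prkcz cKO its log2 difference from controls was -0.03, with a 95% interval of -0.40 to 0.33.

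Other genes of microglia were not called. Their 18 markers summed to 587 to 651 in Prkci cKO, 574 to 607 in Prkcz cKO and 588 to 647 in controls, and none was at 0. Of the 18 markers limma called none in Prkci cKO against controls (3 at an unadjusted p under 0.05) and none in Prkcz cKO against controls (4 at an unadjusted p under 0.05). Of all genes tested, 12.1% and 15% had such a p. The median log2 difference of the markers in Prkci cKO was 0.01, beside 0.00 over all genes tested.

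Arhgef19, an exchange factor gene, stood in order in the groups. It was at 4.62, 5.02, 5.51 and 5.43 in Prkci cKO, 8.91, 8.12 and 7.92 in Prkcz cKO, 10.69 and 9.69 in Pkcz f/f controls and 11.42 and 13.94 in Pkcz f/+ controls. No neighbouring pair of groups in that order overlapped. Of all genes tested, 6.43% were lower without overlap in Prkci cKO than in Prkcz cKO, 15.3% in Prkcz cKO than in Pkcz f/f controls and 24.0% in Pkcz f/f than in Pkcz f/+ controls. It fell by 1.07 in Prkci cKO against controls (log2, SE 0.105, limma adjusted p = 4.46e-04). In Prkcz cKO all 3 libraries lay below every control, as did those of 6.72% of all genes tested, but the log2 difference of -0.43 (SE 0.113) was not called (limma adjusted p = 0.113). Against the Pkcz f/f controls alone, the log2 difference in Prkcz cKO was -0.28 (95% interval -0.53 to -0.03, limma adjusted p = 0.322).

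Plekhn1, which encodes the pleckstrin homology protein, had the same order at low values. It was at 0.62, 0.89, 0.40 and 0.71 in Prkci cKO, 0.93, 1.24 and 1.15 in Prkcz cKO, 1.69 and 1.91 in Pkcz f/f controls and 2.32 and 1.73 in Pkcz f/+ controls. The knockout groups did not overlap with the controls or with each other (0.89 against 0.93 at the closest), while the control genotypes overlapped. Of all genes tested, 5.32% were lower without overlap in Prkci cKO than in controls and 6.72% in Prkcz cKO than in controls. In Prkci cKO against Prkcz cKO the share was 6.43%. Plekhn1 fell by 1.07 in Prkci cKO against controls (log2, SE 0.163, limma adjusted p = 0.00368), and its log2 difference in Prkcz cKO was -0.58 (SE 0.176, limma adjusted p = 0.155). It passed the 0.05 threshold neither between the knockout lines nor between the control genotypes here.

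Markers of mature oligodendrocytes, the myelin-forming cells, were lower in the same libraries. Their 16 genes summed to 3150 to 5035 in Prkci cKO, 4251 to 4744 in Prkcz cKO, 5935 to 6473 in Pkcz f/f controls and 7703 to 8897 in Pkcz f/+ controls, and none was at 0. Against controls, limma called 15 of 16 lower in Prkci cKO and 5 of 16 lower in Prkcz cKO, beside 1.51% and 0.621% of all genes tested. All 16 had an unadjusted p under 0.05 in each knockout. Against Pkcz f/f controls limma called none of the 16 in Prkcz cKO, with 14 at an unadjusted p under 0.05. By their means, the sums of the 16 genes rank the groups as Arhgef19 and Plekhn1 do. The part of these cells in the values of the 8 genes was not tested. Striatal markers summed to 325 to 610 in Prkci cKO, 643 to 1459 in Prkcz cKO and 652 to 1066 in controls, and their part was not tested either. Limma called none of the 10 striatal markers in Prkci cKO, with all 10 at an unadjusted p under 0.05. Of 10 immediate early genes, which respond to neuronal activity, 7 were called lower in each knockout against the same controls.

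Markers of vessels and astrocytes were lower in Prkcz cKO. The 10 endothelial markers summed to 240 to 265 in Prkci cKO, 177 to 191 in Prkcz cKO and 220 to 240 in controls, and none was at 0. Against controls, 8 of the 10 in Prkcz cKO had an unadjusted p under 0.05, and limma called 2 lower, the VEGF receptor genes Flt1 (log2 difference -0.50, adjusted p = 0.00964) and Kdr (-0.60, adjusted p = 0.0379). In Prkci cKO limma called none of the 10, with 3 at an unadjusted p under 0.05. The 10 astrocyte markers summed to 5516 to 6245 in Prkci cKO, 4082 to 5309 in Prkcz cKO and 5474 to 6049 in controls, and none was at 0. Of these, limma called 1 lower in Prkcz cKO, the water channel gene Aqp4 (log2 difference -0.46, adjusted p = 0.0353), and none in Prkci cKO, with 3 at an unadjusted p under 0.05. The part of these cells in the values of the 8 genes was not tested.

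The orphan receptor gene Gpr153 was at 14.85, 14.93, 15.68 and 13.95 in Prkci cKO, 25.80, 19.33 and 24.32 in Prkcz cKO, 22.59 and 21.57 in Pkcz f/f controls and 26.21 and 26.86 in Pkcz f/+ controls. Every Prkci cKO library was below the other 7, and Prkcz cKO spanned the Pkcz f/f controls. Gpr153 fell by 0.69 in Prkci cKO against controls (log2, SE 0.094, limma adjusted p = 0.00226). In Prkcz cKO its log2 difference from controls was -0.07 (95% interval -0.29 to 0.14).

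The F-box gene Fbxo44 differed less. It was at 45.00, 47.32, 44.11 and 45.32 in Prkci cKO, 64.60, 56.76 and 59.74 in Prkcz cKO, 53.03 and 52.91 in Pkcz f/f controls and 53.38 and 63.49 in Pkcz f/+ controls. All Prkci cKO libraries lay below the rest. Fbxo44 fell by 0.29 in Prkci cKO against controls (log2, SE 0.064, limma adjusted p = 0.0391). The call lay near the threshold. It was lost on leaving out any control or any Prkci cKO replicate, 1 to 4 (limma adjusted p = 0.0504 to 0.103). The log2 differences were then -0.31 to -0.22, with the smallest fall without Control replicate 2. Against Pkcz f/f controls alone, the log2 difference was -0.22 (limma adjusted p = 0.127).

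**Figure D2:**
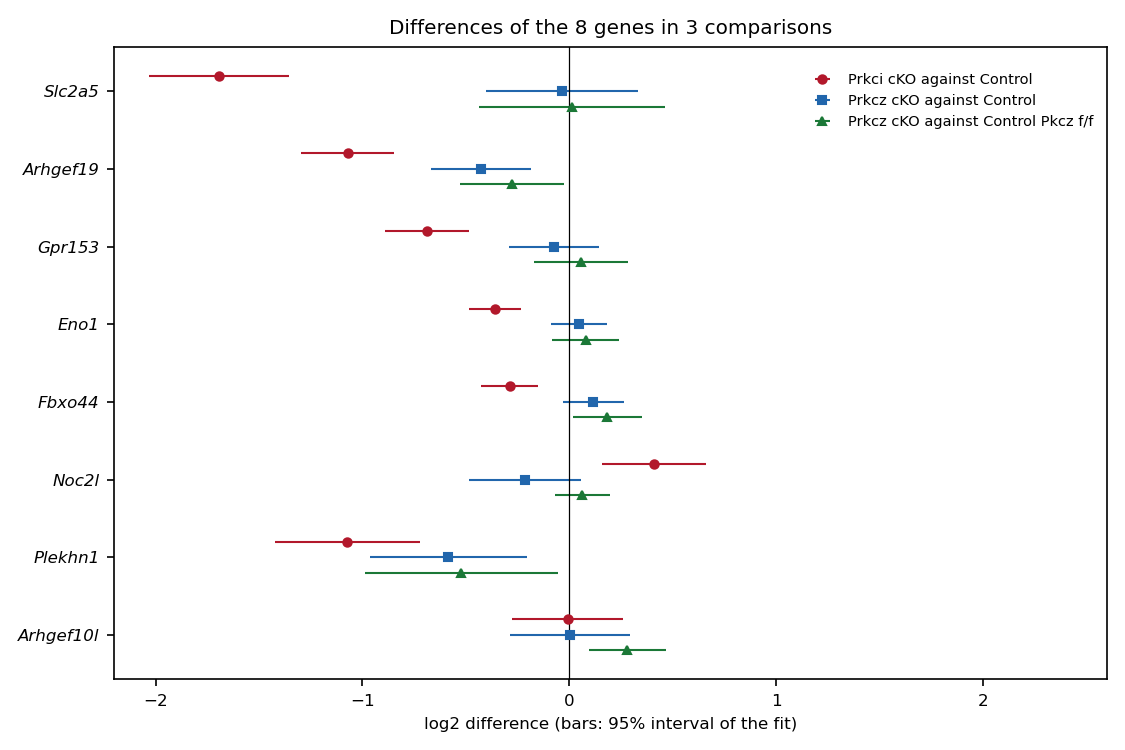
Log2 difference of each gene (horizontal axis, bars for the 95% interval of the fit) in 3 comparisons, with the genes down the page. Against controls, Prkci cKO differed by -1.69 for Slc2a5, -1.07 for Arhgef19 and Plekhn1, and 0.41 for Noc2l, while the intervals of Prkcz cKO against all controls cross 0 for 6 of the 8 genes.

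Eno1 was lower in Prkci cKO, but not when its copy was counted with it. Eno1 was at 466.67, 494.40, 486.27 and 478.35 in Prkci cKO, 693.94, 611.92 and 610.59 in Prkcz cKO, 584.10 and 624.01 in Pkcz f/f controls and 582.82 and 682.08 in Pkcz f/+ controls. No Prkci cKO library overlapped with another group, and Eno1 fell by 0.36 in Prkci cKO against controls (log2, SE 0.058, limma adjusted p = 0.00576). The near-identical copy Gm5506, a gene of chromosome 18 chosen after its values were seen, went the other way: 233.64, 236.98, 235.36 and 226.27 in Prkci cKO, 3.10, 121.36 and 120.72 in Prkcz cKO, 114.54 and 126.25 in Pkcz f/f controls and 109.94 and 2.59 in Pkcz f/+ controls. The libraries stood at 3 levels of the copy, with all Prkci cKO libraries at the high one and Prkcz cKO replicate 1 and Control replicate 2 at the low one.

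The copy took 33.4%, 32.4%, 32.6% and 32.1% of the summed signal of both genes in Prkci cKO. Its share was 0.445%, 16.6% and 16.5% in Prkcz cKO, 16.4% and 16.8% in Pkcz f/f controls, and 15.9% and 0.378% in Pkcz f/+ controls. The sum itself averaged 714 ± 14.5 in Prkci cKO (SD, n = 4), 721 ± 20.4 in Prkcz cKO (SD, n = 3) and 707 ± 29.7 in controls (SD, n = 4). Its log2 difference was 0.02 in Prkci cKO against controls (95% interval -0.08 to 0.11, limma adjusted p = 0.920). The level of Eno1 alone is therefore uncertain here, since the counting could split reads between the genes. Eno1 also shares transcript windows of that length with Gm4735, which was not analysed here.

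**Figure D3:**
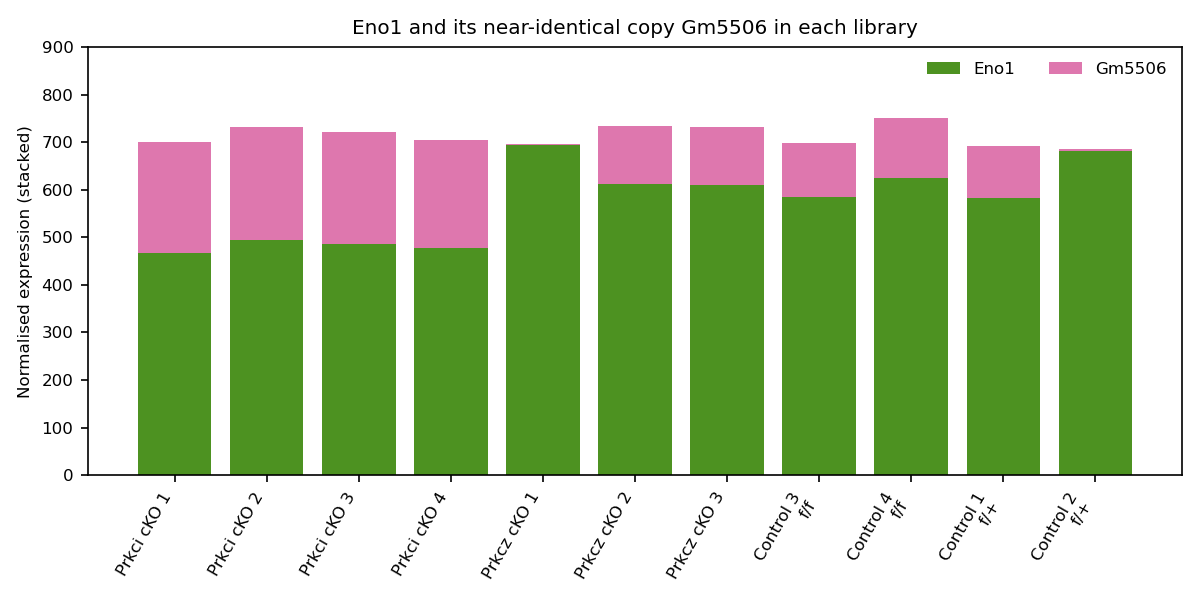
Normalised expression of Eno1 (lower bar segment) and of its copy Gm5506 (upper segment) stacked for each of the 11 libraries. The stacks end between 685 and 750 in all libraries, while the upper segment is largest in the 4 Prkci cKO libraries and nearly absent in Prkcz cKO replicate 1 and Control replicate 2.

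The same pair of libraries, Prkcz cKO replicate 1 and Control replicate 2, was highest for Eno1 and for Fbxo44, which shares no window of 100 bases with any other gene. They were also highest for the distal chromosome 4 genes Gm13157 (6.83 and 5.18), 1700029I01Rik (5.88 and 5.54) and Rpl22 (64.70 and 73.70). In the other Prkcz cKO and control libraries Rpl22, a ribosomal protein gene 2.926 Mb from Prkcz, was at 51.28 to 56.24, and in Prkci cKO at 37.56 to 44.00. These libraries and genes were singled out after their values were seen. Gm13157 was among the genes whose values over all libraries were most like those of Fbxo44, and 1700029I01Rik among those most like Eno1. Their sharing of the pair is therefore no separate evidence. Fhad1, also like Fbxo44, had the same pair highest (5.63 and 5.77). For Zfp933, also like Eno1, Control replicate 4 (17.33) was above Prkcz cKO replicate 1 (17.05). The share of all genes with this pair highest was not counted.

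Noc2l, the nucleolar regulator gene, was low in every library labelled f/f for Prkcz. It was at 57.11, 57.71, 58.75 and 59.91 in Prkci cKO, 38.06, 36.67 and 38.46 in Prkcz cKO, 35.32 and 36.86 in Pkcz f/f controls and 56.23 and 50.41 in Pkcz f/+ controls. The 5 libraries labelled f/f for Prkcz lay between 35.32 and 38.46, and the other 6 between 50.41 and 59.91. Those 6 include the Prkci cKO libraries, whose labels give no Prkcz genotype. The split contains the control contrast on which Noc2l was chosen, so it is a description only, and its cause was not tested. Of all genes tested, 24.0% were lower without overlap in Pkcz f/f than in Pkcz f/+ controls. In Prkci cKO against Prkcz cKO, 7.36% were higher without overlap. The share of all genes that split as Noc2l did was not counted. The difference between the control genotypes, one of those on which the genes were chosen, was -0.55 (log2, Pkcz f/f minus Pkcz f/+), and that between Prkci cKO and Prkcz cKO was 0.62.

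What Noc2l showed against controls depended on which controls were used. Noc2l passed the threshold between the control genotypes, a contrast on which the genes were chosen, so this dependence follows from the choice. Its calls against a single control genotype are therefore descriptions only. Against all 4, it was 0.41 higher in Prkci cKO on the log2 scale (SE 0.116) and not called (limma adjusted p = 0.118), although it was called without Control replicate 1 (log2 difference 0.53, limma adjusted p = 0.0196). Against Pkcz f/f controls alone it was called in Prkci cKO (0.69, limma adjusted p = 1.86e-04), and against Pkcz f/+ controls alone it was not (0.13, limma adjusted p = 0.457). In Prkcz cKO it was called against Pkcz f/+ controls alone (-0.49, limma adjusted p = 0.00832). Against Pkcz f/f controls, which share its Prkcz label, the log2 difference was 0.06 (95% interval -0.07 to 0.20). The end of Noc2l overlaps Samd11 on the opposite strand over 17.5% of its windows of 100 bases. Since the sources used here do not state whether counting used strand, reads of the overlap cannot be told apart, but Samd11 was low throughout (2.18 to 3.24 in Prkci cKO, 2.27 to 3.58 in Prkcz cKO and 1.66 to 4.43 in controls).

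Arhgef10l, the exchange factor gene farthest from Prkcz, was lower in Pkcz f/f than in Pkcz f/+ controls. It was at 45.71, 42.70, 38.92 and 47.10 in Prkci cKO, 47.06, 42.24 and 42.27 in Prkcz cKO, 37.64 and 34.42 in Pkcz f/f controls and 55.17 and 50.97 in Pkcz f/+ controls. Both knockout groups lay between the control genotypes and overlapped each other. The difference between control genotypes, which chose the gene, was -0.55 (log2, Pkcz f/f minus Pkcz f/+). Its log2 difference from all controls was -0.01 in Prkci cKO (95% interval -0.27 to 0.26) and 0.00 in Prkcz cKO (-0.29 to 0.29). Against Pkcz f/f controls alone it was 0.27 in Prkci cKO (limma adjusted p = 0.163) and 0.28 in Prkcz cKO (95% interval 0.09 to 0.47, limma adjusted p = 0.199).

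Between the lines, the values that chose genes were -1.66 (Slc2a5), -0.64 (Arhgef19), -0.61 (Gpr153), -0.41 (Eno1) and -0.40 (Fbxo44). These are log2 differences, Prkci cKO minus Prkcz cKO. Plekhn1 was at -0.49 and did not pass the threshold between the lines. Of the 8 genes 5 passed the threshold in that contrast, where 0.3% of all genes tested passed, and 2 passed between the control genotypes, where 0.154% passed. Nothing is read from those counts. As a description of where the threshold fell, Fbxo44 (0.0276) and Arhgef19 (0.0303) had the adjusted p just inside it between the lines, and 2310042D19Rik (0.0549), Noc2l (0.0560) and Gm13157 (0.0613) just outside. Between the control genotypes Arhgef10l (0.0447) was just inside and the retroviral restriction gene Fv1 (0.172) just outside. In Prkcz cKO against Pkcz f/f controls, limma called none of the 8, where 0.398% of all genes tested were called. At an unadjusted p under 0.05 there were 4 of the 8, beside 13.7% of all genes tested.

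The stretch of chromosome 4 that holds the 8 genes, from the start of Arhgef10l to the chromosome's end, holds 152 other tested genes. Of these 13 (8.55%) were called in Prkci cKO against controls, all lower, at log2 differences of -1.72 to -0.29. Among them Tmem88b, 0.42 Mb from Prkcz, averaged 47.7 ± 8.54 in Prkci cKO (SD, n = 4) and 92.6 ± 16.0 in controls (SD, n = 4), a log2 difference of -0.95 (limma adjusted p = 0.00226). Tmem88b was also below every control in Prkcz cKO, at 55.09, 56.63 and 68.27 against 77.07 to 114.07. That log2 difference of -0.61 was not called (limma adjusted p = 0.0696). Padi2, which encodes an enzyme that citrullinates proteins and is abundant in oligodendrocytes, averaged 28.3 ± 1.62 in Prkci cKO and 41.0 ± 4.97 in controls (SD, n = 4 each; log2 difference -0.52, limma adjusted p = 0.00332). Kazn, which encodes the cell junction protein kazrin, differed by -0.31, Zfp933 by -0.55, Pramef8 by -0.29 and Rpl22 by -0.48.

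By gap to Prkcz, without the 8 genes, 5 of 76 genes within 5 Mb were called in Prkci cKO against controls (6.58%), 4 of 42 between 5 and 10 Mb (9.52%) and 4 of 34 between 10 and 15 Mb (11.8%). Farther away, 2 of 201 between 15 and 30 Mb (0.995%) and 4 of 498 beyond 30 Mb (0.803%) were called. The share was higher in all 3 near ranges than in both far ranges. The near ranges hold the stretch whose start was set by Arhgef10l, 14.594 Mb from Prkcz and itself chosen from these data. The division into near and far is therefore a description only, and the ranges were not recounted with libraries left out. The median log2 difference of the 152 was 0.02, beside 0.00 over all genes tested, and the median size of the difference was 0.119, beside 0.0700. The count of 13 depended on single libraries. It was 6 without Prkci cKO replicate 1, 2 or 3 and 7 without Prkci cKO replicate 4, and it was 8 without Control replicate 1, 2 or 4. Over all genes, 147, 94, 165 and 199 were called without Prkci cKO replicates 1 to 4. With Pkcz f/f controls alone the distal count was 7 and with Pkcz f/+ controls alone 8.

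**Figure D4:**
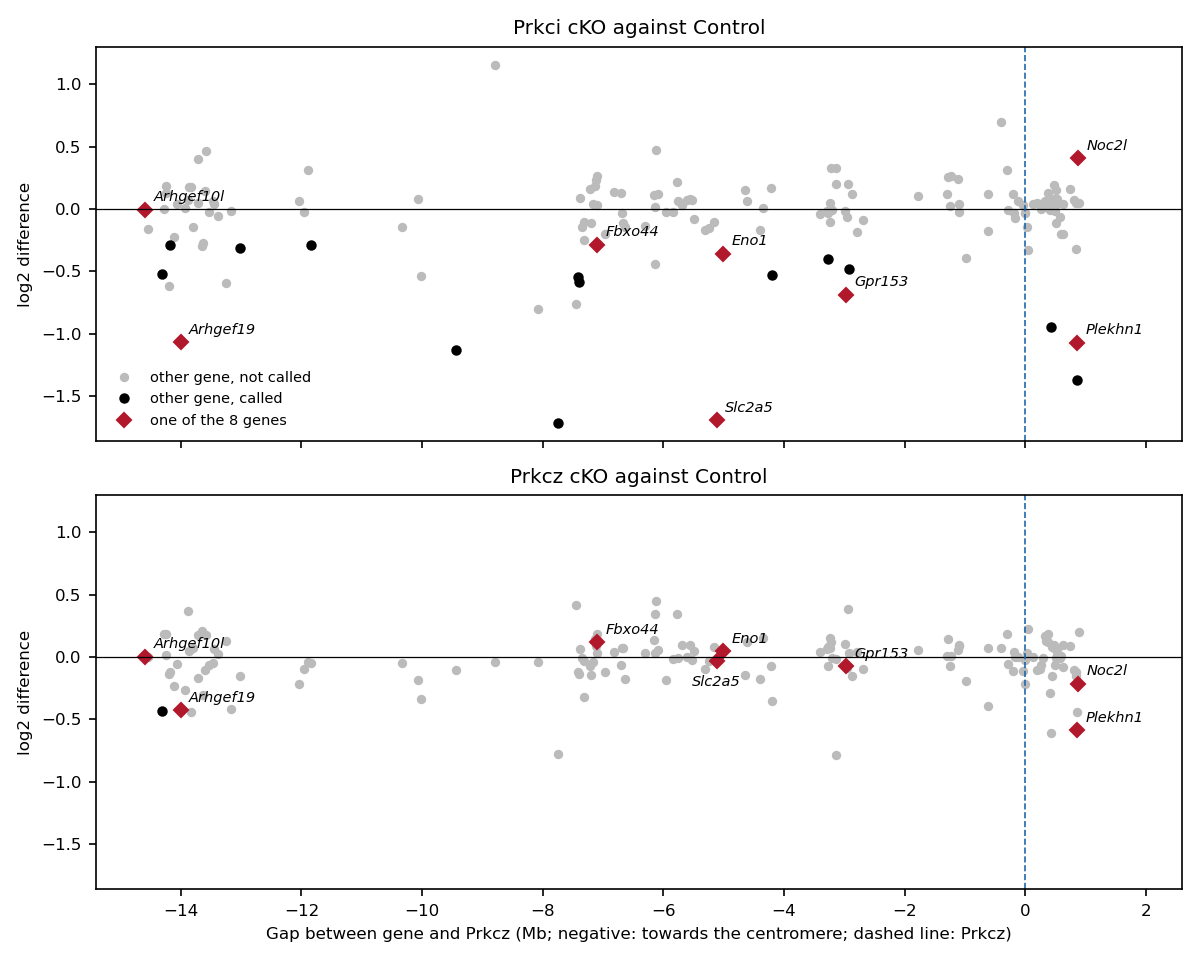
Log2 difference from controls (vertical axes) of 160 distal chromosome 4 genes against their gap to Prkcz in Mb (horizontal axis), in Prkci cKO (upper panel) and Prkcz cKO (lower panel); diamonds are the 8 genes and black points other called genes. The 13 black points of the upper panel all lie below 0, and the lower panel has 1.

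In the other comparisons 1 or none of the 152 neighbours was called. In Prkcz cKO against controls Padi2 alone of the 152 was called (0.658%, beside 0.649% of all genes tested; 30.2 ± 1.19 in Prkcz cKO, SD, n = 3, against 41.0 ± 4.97 in controls, SD, n = 4; log2 difference -0.43, limma adjusted p = 0.0379), and no gene of the stretch was called without Control replicate 1, 2 or 3, Prkci cKO replicate 1 or 2, or Prkcz cKO replicate 1, 2 or 3. Between the lines 2010015L04Rik, 0.048 Mb from Prkcz, was the 1 neighbour called (0.658%, beside 0.3% of all genes tested): 12.7 ± 0.291 in Prkci cKO (SD, n = 4) and 19.0 ± 1.76 in Prkcz cKO (SD, n = 3), a log2 difference of -0.55 (limma adjusted p = 0.0139). It was 4 neighbours without Control replicate 2, 2 without Control replicate 1 or Prkci cKO replicate 3, and 0 without Prkci cKO replicate 1, 2 or 4 or Prkcz cKO replicate 3. At an unadjusted p under 0.05 there were 48 between the lines (31.6%), beside 16% of all genes tested. Between the control genotypes limma called none of the 152, beside 0.154% of all genes tested, and 25 (16.4%) had an unadjusted p under 0.05, beside 12.6%. In Prkcz cKO against Pkcz f/f controls it called none, beside 0.398%, and 26 (17.1%) had an unadjusted p under 0.05, beside 13.7%.

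**Figure D5:**
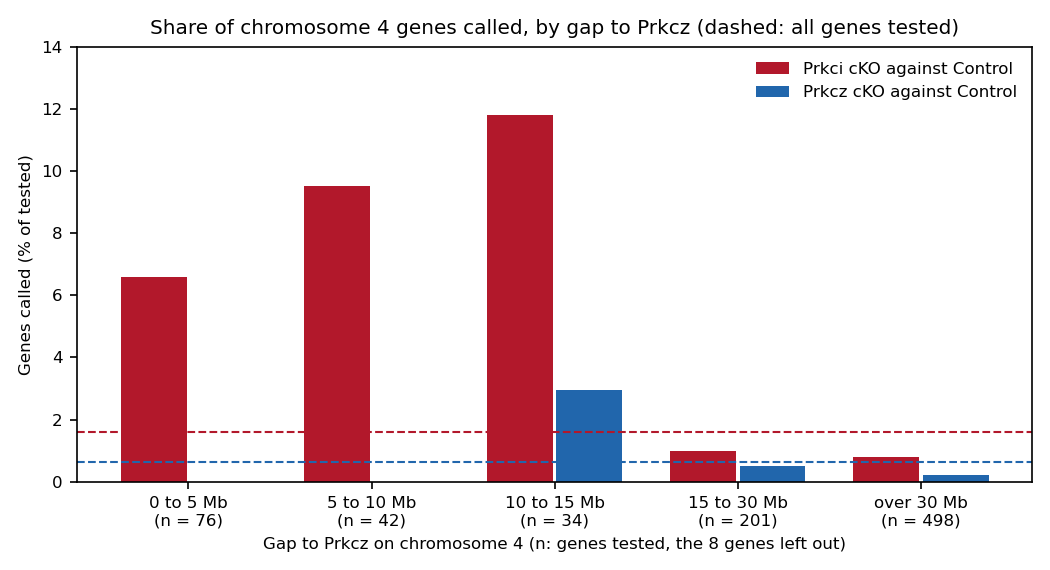
Share of tested chromosome 4 genes called against controls (vertical axis, %) in 5 ranges of gap to Prkcz (horizontal axis), without the 8 genes, in Prkci cKO (left bars) and Prkcz cKO (right bars); dashed lines give the share of all genes tested, 1.61% and 0.649%. The bars of Prkci cKO reach 6.58% to 11.8% within 15 Mb and under 1% beyond.

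Genes with like roles elsewhere in the genome were counted from lists. Of 24 other tested genes of hexose transport and glycolysis, limma called none in Prkci cKO (2 at an unadjusted p under 0.05) and none in Prkcz cKO (6), both against controls; the largest departures by p were Hk1, a hexokinase gene, at 0.16 in Prkci cKO (log2, limma adjusted p = 0.1001) and Slc2a1, the glucose transporter gene on chromosome 4, at -0.23 in Prkcz cKO (limma adjusted p = 0.135). Of the other enolases, Eno2 of neurons had a log2 difference of -0.01 and Eno3 of muscle 0.16 in Prkci cKO. The list's median log2 difference was 0.04 in Prkci cKO and 0.07 in Prkcz cKO.

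Of 21 other orphan and related receptors of brain, 2 fell in Prkci cKO, Gpr17 (-0.60, limma adjusted p = 8.08e-04) and Gpr37 (-0.84, limma adjusted p = 0.00226), both receptors known from the oligodendrocyte lineage. In Prkcz cKO 1 of the 21 was called, Gpr17 (-0.77, limma adjusted p = 1.86e-04), while Gpr37 was lower but not called (-0.55, limma adjusted p = 0.0695). At an unadjusted p under 0.05 there were 7 of the 21 in Prkci cKO and 4 in Prkcz cKO, beside 12.1% and 15% of all genes tested. Of 8 F-box and SCF genes limma called none in Prkci cKO (1 at an unadjusted p under 0.05) and none in Prkcz cKO (3). Fbxo6, an F-box gene beside Fbxo44 on chromosome 4, had a log2 difference of 0.26 in Prkci cKO (limma adjusted p = 0.198). Of 24 nucleolar ribosome biogenesis genes limma called none in Prkci cKO (2 at an unadjusted p under 0.05) and none in Prkcz cKO (1).

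For each gene, those with the most similar profile were ranked by the root mean square difference of standardised log2 values over the 11 libraries, as a description. Prkci was nearest to Slc2a5 (0.231), followed by Eno1 (0.359) and Gpr153 (0.402). Necap2, on distal chromosome 4, was nearest to Arhgef19 (0.293), followed by Elovl7 and Slc45a3. Slc2a5, Rcc2 and Arhgef19 were nearest to Gpr153. The profiles nearest to Eno1 were those of Fbxo44 (0.272), 1700029I01Rik and Zfp933, and those nearest to Fbxo44 were Eno1, Gm13157 and Fhad1, all on distal chromosome 4. For Noc2l (Sox18, Scaf1 and Zcchc6), Plekhn1 (Tnfrsf11a, Ears2 and Arrdc3) and Arhgef10l (Samd5, Nr1d1 and Gm9899) the 3 nearest genes lay on other chromosomes.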

How the data were processed

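Gene expression was measured by RNA sequencing (paired reads of 100 bases, per the labels) in 11 cortex libraries. The values deposited by the authors are a normalised signal for each gene, and the columns sum to 1021767 to 1082562. The sources used here state neither the scaling of libraries nor the use of strand. The submitters' processing notes name FastQC, Trim Galore, STAR, RSEM, edgeR and GRCm38. Only 80.9% to 89.2% of low values (under 0.5) were, to within 0.005, whole multiples of 1 step, so whole reads were not recovered and no count test was run.

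The filter kept 14330 of 16228 genes, those that reached 1 in 3 or more libraries. All 11 libraries entered a limma 3.58.1 fit (R 4.3.3) on log2(value + 0.5) with a term per group and a variance trend. P-values were two-sided and adjusted over all genes by the Benjamini-Hochberg method. A second fit split the controls by genotype label. Intervals are 95% intervals of the fit. The fit was tested on simulated data. The design text calls the replicates biological. Replicate numbers were taken not to pair animals, since deviations of same-numbered libraries correlated at -0.186 to 0.196.

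Positions are from GENCODE M21 on GRCm38, which with RefSeq synonyms matched 15526 of 16228 symbols. Sequences of upstream windows are RefSeq's. Named genes were, by rule, the 8 genes, Prkci and Prkcz, up to 6 distal neighbours per comparison by p, 3 most similar genes each and up to 3 per list by p. Members and lists were chosen with earlier results of these data known. Alternatives covered the pseudocount, filter, scaling, variance model, samples fitted, control genotype, a replicate block, each library left out and, added after seeing the data, Eno1 summed with its copy. The result of 1 gene list is not reported here.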

Additional observations from a re-analysis of the deposited data

Results flagged for a closer look

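Of 22 groups of 4 libraries examined, 2 held a library far from the other 3 by Dixon's criterion, where chance gives about 1 in 20 groups. Fbxo44 was at 63.49 in Control replicate 2, against 52.91 to 53.38 in the other controls. Gm5506, the copy of Eno1, was at 2.59 in Control replicate 2, against 109.94 to 126.25 in the other controls. Prkcz cKO replicate 1, in a group too small for this criterion, had 64.60 for Fbxo44 and 3.10 for Gm5506. The cause was not tested.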

How the results depend on the processing

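The calls of Slc2a5, Arhgef19, Gpr153, Eno1 and Plekhn1 in Prkci cKO against controls held without each of the 11 libraries in turn and under each other setting that gave a value, except that Eno1 summed with its copy was not called (log2 difference 0.017). Counts of called genes moved more. In Prkcz cKO against controls, 93 genes became 30 with no variance trend, 28 with only the groups compared fitted and 59 with Pkcz f/f controls alone. In Prkcz cKO against Pkcz f/f controls, 57 became 30 and 31 under the first pair of these settings, and between the control genotypes 22 became 12 and 114. In Prkci cKO against controls 230 became 132 with Pkcz f/f controls alone. Of distal genes, members included, the 6 called between the lines became 10 with no filter, 3 with no trend and 10 with only those groups fitted; the 2 between control genotypes became 1 with no filter or no trend; and the 1 in Prkcz cKO against controls became 0 with no trend, only those groups fitted or Pkcz f/f controls alone, and 3 with Pkcz f/+ controls alone.

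With a library left out, genes called ranged from 94 to 350 in Prkci cKO against controls (distal 11 to 22), 12 to 111 in Prkcz cKO against controls (distal 0 to 1), 10 to 151 between the lines (distal 1 to 9), 5 to 40 between control genotypes (distal 0 to 2) and 19 to 83 in Prkcz cKO against Pkcz f/f controls. A lone control of a genotype was then assumed to vary like the other groups. The replicate block called 73 genes between the lines, against 43 without it, and ended the Fbxo44 call in Prkci cKO (adjusted p = 0.0534, against 0.0391); the numbers are not shown to pair animals.

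Small differences changed sign. Arhgef10l ranged from -0.12 to 0.10 in Prkci cKO and from -0.11 to 0.11 in Prkcz cKO with a library left out; it was 0.27 in Prkci cKO against Pkcz f/f controls alone, and in Prkcz cKO -0.034 with the block and -0.27 against Pkcz f/+ controls alone. In Prkcz cKO, with a library left out, Slc2a5 ranged from -0.20 to 0.11, Gpr153 from -0.16 to 0.049 and Eno1 from -0.013 to 0.096; against Pkcz f/f controls alone Slc2a5 was 0.012, Gpr153 0.057 and Noc2l 0.063. Fbxo44 also lost its call with no variance trend. The cause of these shifts was not tested. Low values of Slc2a5 and Plekhn1 and groups of 2 to 4 libraries limit the precision.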
